A study of Homo sapiens with 7 samples.

Results

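The major histocompatibility region was taken as positions 28.5 to 33.5 Mb of chromosome 6 in hg19, and its members are the chromatin loops with at least 1 anchor midpoint inside it. Of 135475 loops in 7 loop lists, 188 met this rule: 0 among wild-type ZNF143 loops, 0 among wild-type CTCF loops, 1 among wild-type RAD21 loops, 1 among CTCF loops and 1 among RAD21 loops of ZNF143-deleted cells, and 110 and 75 among the ZNF143 loops of CTCF-AID cells at 0 h and 24 h of auxin. The rule for members uses position only, but the region was chosen with earlier results of these data known.

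Loops were measured by HiChIP, a method that ligates neighbouring DNA ends in crosslinked cells, pulls down the ligated fragments through a bound protein and sequences them as pairs. All cells were HEC-1-B, an established line of human uterine adenocarcinoma cells, or lines derived from it. Wild-type cells were assayed with antibodies against ZNF143, CTCF and RAD21, and cells of the genotype ZNF143KO with antibodies against CTCF and RAD21. Cells of the genotype CTCF-AID, in which CTCF carries a tag for auxin-induced breakdown, were assayed with the ZNF143 antibody after 0 h and after 24 h of the auxin IAA. The protocol gives IAA at a final concentration of 500 µM in cells that express TIR1. The labels do not state how many clones stand behind ZNF143KO and CTCF-AID. Every group held 1 library, so no difference below has a replicate check and no p-value is given. Intervals are 95% intervals for counting error only. Neighbouring loops share anchors and are not independent, so the true error is larger.

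The major histocompatibility region is a gene-dense stretch known for its role in immune recognition. Its class II part holds the HLA-DR, HLA-DQ and HLA-DP genes, which present peptides taken up from outside, and the TAP genes, which encode a peptide transporter. The class III part, between the class I and class II parts, holds complement genes, tumour necrosis factor and heat shock genes. CTCF binds DNA and halts cohesin, the ring complex that contains RAD21 and extrudes chromatin loops, while ZNF143 is a zinc-finger protein that binds many promoters. CTCF sites in the class II part are known to separate HLA genes and to contact one another. Here the region was split at 31.5 and 32.3 Mb into class I (3 Mb), class III (0.8 Mb) and class II (1.2 Mb). Anchors were not assigned to genes, since no hg19 annotation was used here, and are named by position, counted from 1.

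Loops of the region were listed almost only in the CTCF-AID libraries. The 5 other lists held 3 of the 188 loops, all of them above position 33457717 at the upper edge. Lists of a similar size differed in this. The wild-type CTCF list held 19313 loops in all and 898 on chromosome 6, the wild-type RAD21 list 16788 and 804, and the CTCF list of ZNF143-deleted cells 15597 and 804, against 20587 and 514 in the 24 h CTCF-AID list with its 75 loops in the region.

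**Figure D1:**
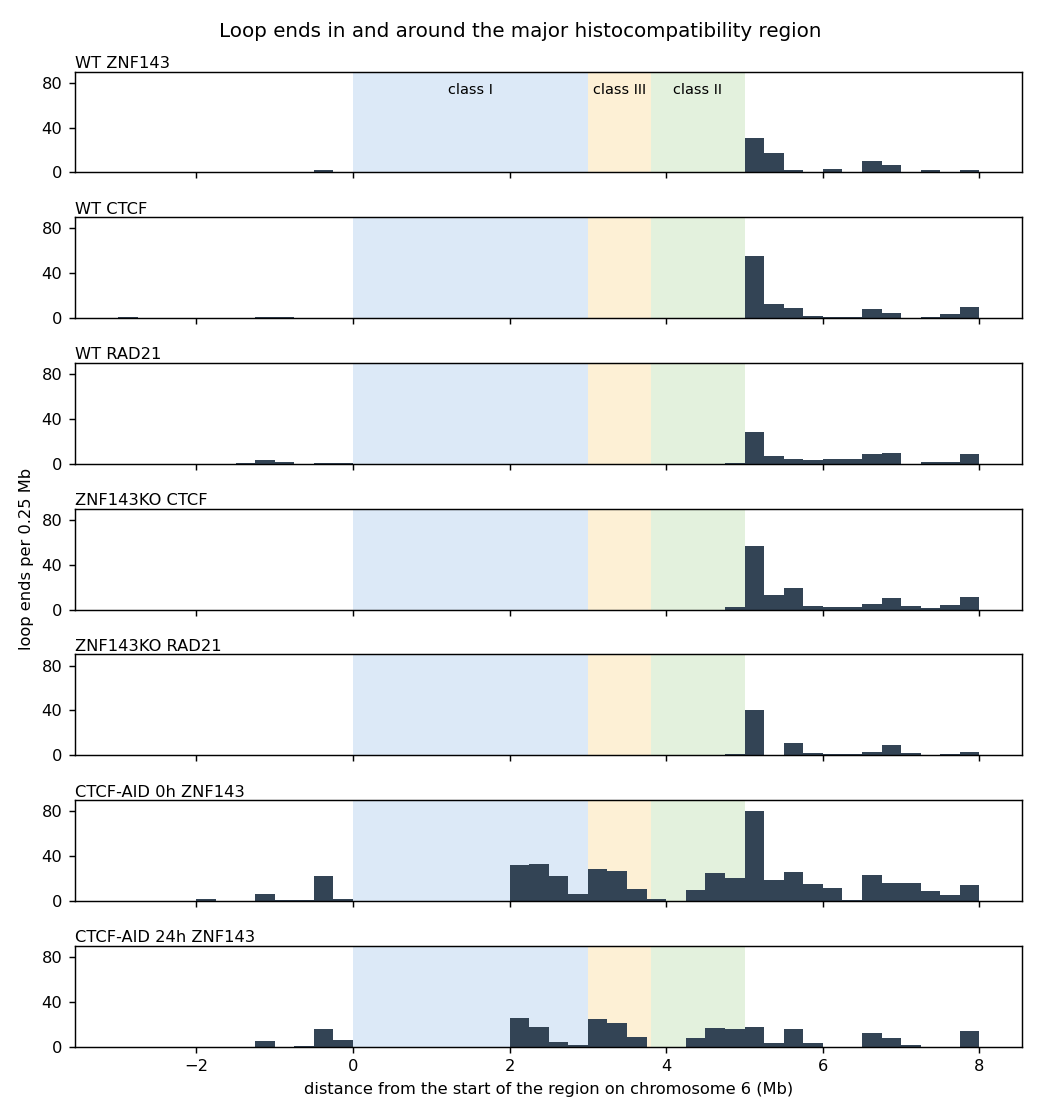
Loop ends (anchor midpoints) per 0.25 Mb on the vertical axis against distance from the start of the region in Mb, with 1 panel per library and the 3 subregions shaded. In the 5 lists from wild-type and ZNF143KO cells the shaded area is empty up to its upper edge, while both CTCF-AID lists fill it from about 2 Mb onward.

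Just above the region every list held loops. In the 5 Mb above it the lists held 42 wild-type ZNF143, 101 wild-type CTCF, 83 wild-type RAD21, 119 ZNF143KO CTCF and 64 ZNF143KO RAD21 loops, beside 166 and 52 CTCF-AID loops at 0 h and 24 h. In the 5 Mb below it they held 1, 6, 6, 2 and 0 loops, beside 17 and 14. In each of the 7 libraries the upper side thus held more loops than the lower side.

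The stretch without any anchor in the 5 lists ran from 28325257 to 33457717, a length of 5132 kb, and held 73 anchors of the CTCF-AID lists. Among the 31412 stretches between neighbouring anchors of the 5 lists, it held the most CTCF-AID anchors. The next stretch, on chromosome 12 from 113635973 to 114417505, held 16. Counted in 5 Mb windows by the centre of the loop, 92 of 597 windows held at least 110 loops at 0 h. In the others of these 92 the 5 lists held between 114 and 1251 loops (median 329), and in the window of the region they held 1. Cell line, library and the way the lists were made cannot be told apart here. How reads of this stretch were aligned and filtered in each library, and whether the lists used here hold every loop that was called, is not given in the sources used here. A count of 0 loops in a list therefore does not show that the contacts were absent from the cells, and this holds for every 0 below.

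The 3 loops outside the CTCF-AID lists lay at the upper edge of class II. The wild-type RAD21 loop joined chr6:33457718-33459013 to chr6:33546803-33549069, spanned 89.6 kb and had a count of 2. The RAD21 loop of ZNF143-deleted cells joined chr6:33457718-33460607 to the same upper anchor, with a count of 3. Loops were matched between lists by both anchors, with 5 kb of slack on each side. A loop missing from the later or deleted condition is called lost, and one missing from the earlier or wild-type condition gained. These 2 loops match each other: of the wild-type RAD21 loops of the region 0 of 1 was lost and of the ZNF143KO RAD21 loops 0 of 1 was gained, where 65.9% of all RAD21 loops were lost and 49.1% gained. The CTCF loop of ZNF143-deleted cells joined chr6:33459189-33460607 to chr6:33479328-33482201, a distance of 20.9 kb, with a count of 2. It had no counterpart in wild-type cells, as was so for 52.9% of all CTCF loops of deleted cells. The wild-type RAD21 loop was not found among wild-type CTCF loops, whereas 52.2% of all wild-type RAD21 loops were. With 1 loop or none per list, the effect of ZNF143 deletion on CTCF and cohesin loops inside the region could not be measured.

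No CTCF-AID loop of the region could have a counterpart in the wild-type ZNF143 or CTCF list, which hold none there, and the single RAD21 or ZNF143KO loops at the edge matched none. The 0 of 110 loops found at 0 h is thus fixed by those empty lists and is no separate result. Over all 0 h ZNF143 loops, 80.6% were absent from the wild-type ZNF143 list, 12% were found among wild-type CTCF loops and 10.2% among wild-type RAD21 loops.

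Within the CTCF-AID libraries the region was rich in ZNF143 loops. It made up 0.272% (0.226 to 0.328) of the 0 h list and 0.364% (0.291 to 0.456) of the 24 h list, or 8.37% and 14.6% of the chromosome 6 loops. Loops with both anchors inside numbered 21.6 per Mb at 0 h and 14.2 per Mb at 24 h. The median of the other 5 Mb windows of chromosome 6 was 4.7 and 0.9 loops per Mb, and that of the other windows of the genome 5.6 and 1.6.

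Per Mb of its full length class III held the most loops at both times. At 0 h it held 30 loops (37.5 per Mb), class II held 26 (21.7 per Mb) and class I 46 (15.3 per Mb). At 24 h class III held 23 loops (28.75 per Mb), class II 16 (13.3 per Mb) and class I 23 (7.67 per Mb). Class III also held more loops than class II in number, although it is the shorter of the pair. The place of class I depends on the length counted. Over the stretch from its first to its last anchor (30615005 to 31462270), a choice made after the values were seen, class I held 54.3 loops per Mb at 0 h and 27.1 at 24 h, against 42.5 and 32.6 in class III and 25.8 and 15.9 in class II.

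The loops did not cover class I evenly. No CTCF-AID anchor lay between the lower edge of the region at 28.5 Mb and 30615004, a stretch of 2115 kb, so all class I loops sat in its upper part. The next longest stretches without an anchor were chr6:32385099-32764124 in class II (379 kb), chr6:31166451-31334259 in class I (168 kb) and chr6:32214247-32380669, which lies across the border of class III and class II (166 kb). Much of the lower part of class II was thus bare, and 12 of its 19 anchors lay above position 33083628.

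**Figure D2:**
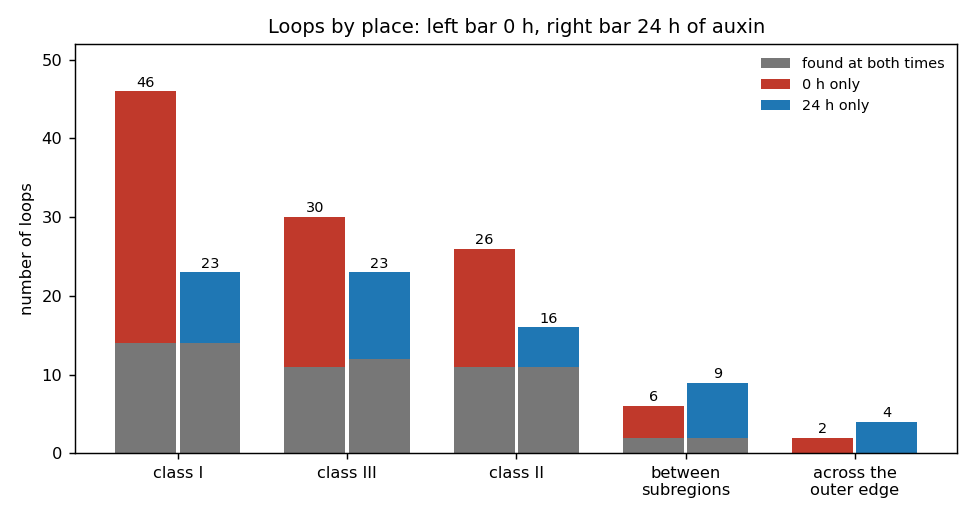
Number of ZNF143 loops of CTCF-AID cells in each subregion, between subregions and across the outer edge of the region, with the left bar for 0 h and the right bar for 24 h of auxin; grey marks loops found at both times. Class I went from 46 to 23 listed loops, and loops between subregions from 6 to 9.

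Loops between subregions were few and weak. At 0 h, 6 loops joined different subregions, 1 from class I to class III and 5 from class III to class II, each with a count of 2. At 24 h there were 9, 4 from class I to class III and 5 from class III to class II, with counts of 2 to 5. Only 2 of these were found at both times: the loop from 31.634 to 32.94 Mb, with counts of 2 and 3, and the loop from 31.867 to 32.765 Mb, with counts of 2 and 5. Across the upper edge the 0 h list held 2 loops and the 24 h list 4, the 4 at 24 h all starting from the class II anchors between 33.257 and 33.281 Mb. No loop crossed the lower edge.

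The comparison of 24 h with 0 h of auxin asks which ZNF143 loops were still listed after CTCF depletion. The region held 0.682 times as many loops at 24 h (0.501 to 0.923), the rest of the genome 0.509 times (0.501 to 0.518) and the rest of chromosome 6 0.365 times (0.326 to 0.407). At a minimum count of 3 the ratio in the region was 0.828, with an interval of 0.553 to 1.23 that includes 1. It was 1 (0.582 to 1.72) at a minimum count of 5, 0.853 at equal listed totals and 0.952 (0.602 to 1.50) with all counts divided by 2. The ratio in the region was 1.34 times that in the rest of the genome, with an interval of 0.998 to 1.80 that includes 1. It was 1.87 times (1.37 to 2.56) that in the rest of chromosome 6. With counts outside the region divided by 2, since their scale may differ as described below, the first value was 0.948 (0.706 to 1.27). The second was not taken with that setting. By subregion the ratio of 24 h to 0 h loops was 0.5 (0.289 to 0.842) in class I, 0.767 (0.425 to 1.37) in class III and 0.615 (0.308 to 1.19) in class II. Whether the subregions differed from each other was not tested.

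Of the 110 loops at 0 h, 72 were lost, 65.5% (56.2 to 73.7), where 75.3% of all 0 h loops were lost. Against the loops outside the region the difference was -9.90 percentage points (-19.2 to -1.66). It was 1.95 points (-7.37 to 10.2) when the counts outside the region, whose scale may differ as described below, were divided by 2. Its interval took in 0 at a minimum count of 3 (-11.0, -23.7 to 1.23) and among loops with a count of 2 (-5.52, -18.4 to 3.40). The 84.4% lost on the rest of chromosome 6 lay farther away. The share lost was 69.6% in class I (32 of 46), 63.3% in class III (19 of 30) and 57.7% in class II (15 of 26). Of the 75 loops at 24 h, 36 were gained, 48.0% (37.1 to 59.1), where 54.6% of all 24 h loops were gained. That difference from the rest, -6.67 points (-17.6 to 4.48), includes 0. Gained loops were 9 of 23 in class I, 11 of 23 in class III and 5 of 16 in class II.

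**Figure D3:**
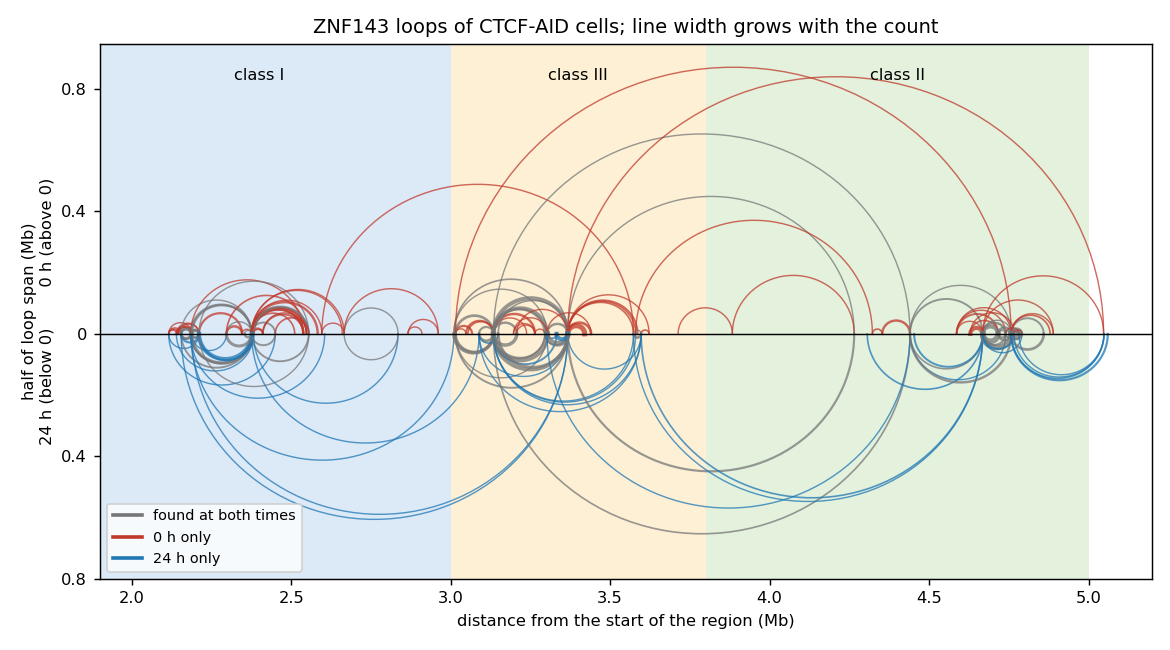
ZNF143 loops of CTCF-AID cells drawn as arcs from anchor to anchor along the distance from the start of the region in Mb, with 0 h above and 24 h below the line and the height equal to the loop span divided by 2. Grey arcs were found at both times, red arcs at 0 h only and blue arcs at 24 h only; the blue arcs are mostly wide, with a median span of 286.5 kb.

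The loops gained at 24 h were longer than those lost. Lost loops had a median span (distance between anchor midpoints) of 113.5 kb (79.8 to 137.4), and gained loops one of 286.5 kb (198.4 to 439.9). The rest of the genome showed the same order, with 265.6 kb for lost and 464.8 kb for gained loops. Loops found at both times spanned 95.3 kb in the 0 h list and 101.9 kb in the 24 h list (medians). Over all loops of the region the median was 105.4 kb before auxin and 187.5 kb after it, a ratio of 1.78 whose interval of 0.863 to 2.95 includes 1. The ratio was 1.21 at a minimum count of 3 and 1.16 with counts divided by 2. Outside the region the medians were 236.2 and 300.3 kb (ratio 1.27, 1.22 to 1.32). The listed loops of the region thus had the shorter median at both times. The count scale outside may differ, as described below, and no median span outside was taken with counts divided by 2.

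Below 200 kb fewer loops were listed at 24 h than at 0 h, and above it slightly more. From 20 to 50 kb there were 31 and 15 loops, a ratio of 0.484 (0.243 to 0.924). From 50 to 100 kb there were 21 and 11 (0.524, 0.228 to 1.14), and from 100 to 200 kb 30 and 15 (0.5, 0.25 to 0.959). The rest of the genome had ratios of 0.419, 0.432 and 0.447 in these classes, each within the interval of the region. From 200 to 500 kb there were 22 and 24, a ratio of 1.09 (0.586 to 2.04), where the rest of the genome had 0.494 (0.479 to 0.511). At 500 kb or more there were 6 and 10, a ratio of 1.67 (0.549 to 5.58), where the rest had 0.647 (0.628 to 0.667). The count scale outside may differ, as described below, and the span classes were not run with counts outside divided by 2. Of the 15 loops listed at 24 h from 20 to 50 kb, 2 were gained (13.3%), against 16 of 24 (66.7%) from 200 to 500 kb. The rest of the genome had 29.5% and 54.8%, so gained loops were more frequent among long ones there too.

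Among 0 h loops, those with higher counts were found again more often. Of these, 11 of 52 loops with a count of 2 were found at 24 h (21.2%), 9 of 28 with 3 to 4 counts (32.1%), 14 of 24 with 5 to 9 (58.3%) and 4 of 6 with 10 or more (66.7%). The rest of the genome had 15.6%, 33.3%, 51.0% and 73.6% in the same classes, but a count may not mean the same inside and outside the region, so the values stand side by side only. Going back from 24 h, 4 of 27 loops with a count of 2 had been listed at 0 h (14.8%, 5.92 to 32.5), where the rest had 29.1%. With 3 to 4 counts these were 9 of 18 (50%, 29.0 to 71.0) against 52.3%. With 5 to 9 counts these were 18 of 20 (90%, 69.9 to 97.2) against 73.0%, and with 10 or more 8 of 10 (80%, 49.0 to 94.3) against 92.7%. With so few loops the order of the upper 2 classes in the region is not settled.

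Counts at both times were compared for the same pair of merged anchors, without the 5 kb of slack. In the region 35 pairs were listed at both times. The count was higher at 24 h for 21 of them, equal for 5 and lower for 9, and the median ratio of 24 h to 0 h was 1.33 (1.00 to 1.67), with single pairs from 0.5 to 9.5. The count was higher for 60% of these pairs (43.6 to 74.4), an interval that takes in the 46.2% of the rest of the genome. Had the highest count within 5 kb been taken, 38 loops would have been compared and 65.8% (49.9 to 78.8) would have been higher, against 49.2% in the rest of the genome, just outside that interval. The libraries were not scaled to a common depth, so a ratio of counts has no absolute meaning.

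Anchors, merged where they overlapped in the CTCF-AID lists, numbered 71 in the region: 28 in class I, 24 in class III and 19 in class II. At 0 h 67 of them carried a loop and at 24 h 40, with 36 in use at both times, 31 only at 0 h and 4 only at 24 h. Of the anchors at 0 h, 53.7% (41.9 to 65.1) were still in use at 24 h, where the rest of the genome had 38.3% (37.6 to 39.0), or 40.6% (39.6 to 41.6) with the counts outside divided by 2. Of the anchors at 24 h, 36 of 40 had been in use before (90%, 76.9 to 96.0), beside 86.9% in the rest of the genome, or 72.6% with the counts outside divided by 2. Of the 72 lost loops, 49 had 1 anchor still in use at 24 h, 16 had both (22.2%, 14.2 to 33.1) and 7 had neither (9.72%, 4.79 to 18.7). In the rest of the genome 20.5% had both and 24.9% had neither. Of the 36 gained loops, 30 joined anchors that were each already in use at 0 h (83.3%, 68.1 to 92.1), near the 81.9% of the rest of the genome.

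**Figure D4:**
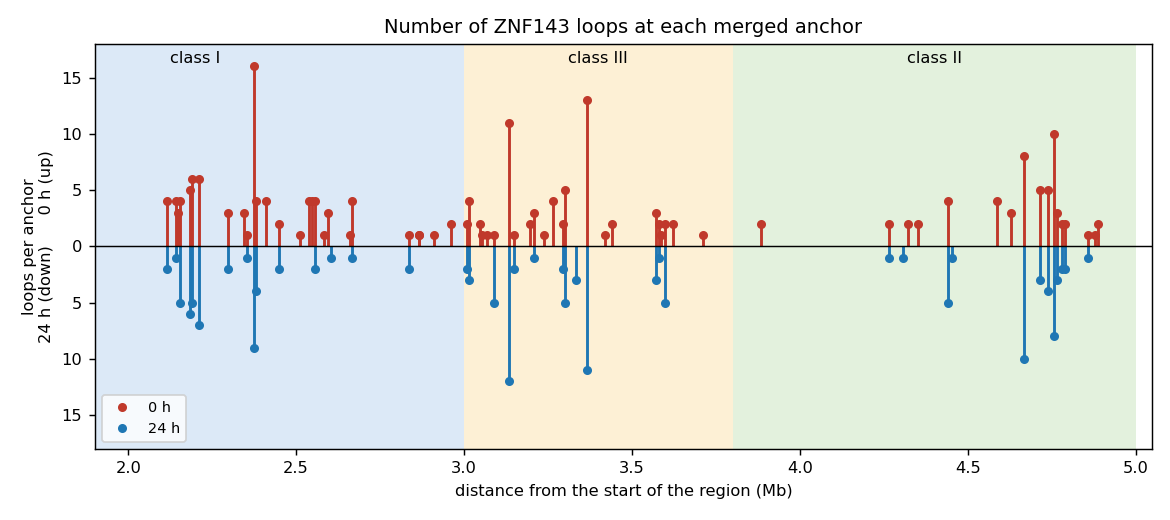
Number of ZNF143 loops at each merged anchor of the region against distance from its start in Mb, with 0 h upward in red and 24 h downward in blue. The tallest line at 0 h is the class I anchor near 30.876 Mb with 16 loops, which has 9 at 24 h, while many anchors with few loops at 0 h have no line at 24 h.

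A few anchors carried many of the loops. The 3 anchors with the most loops took part in 39 of 110 loops at 0 h (35.5%, 27.1 to 44.7) and in 32 of 75 at 24 h (42.7%, 32.1 to 53.9). The class I anchor chr6:30874903-30876730 carried 16 loops at 0 h and 9 at 24 h, with summed counts of 56 and 52. In class III, chr6:31864643-31869202 carried 13 and 11 loops (summed counts 64 and 69), and chr6:31632077-31634971 carried 11 and 12 (64 and 80). In class II, chr6:33255420-33258074, named for having the most loops of class II at 0 h after its values were seen, carried 10 and 8 (40 and 68), and chr6:33166878-33169130 carried 8 and 10 (43 and 63). Loop number changed little at 4 of these 5 anchors, by 1 or 2 loops, and the class I anchor had 7 fewer. The loops themselves changed more. At 31.867 Mb 8 of 13 were lost and 6 of 11 gained, and at 31.634 Mb 4 of 11 and 4 of 12. At 33.257 Mb these were 4 of 10 and 2 of 8, at 33.168 Mb 4 of 8 and 6 of 10, and at 30.876 Mb 9 of 16 and 2 of 9.

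At 2 of these anchors the loops of one side were mostly found again and those of the other side mostly not. This was seen after the values were known, and it is given as a description. The class I anchor at 30.876 Mb had 6 loops toward lower positions at 0 h, of which 5 were found at 24 h, and 10 toward higher positions, of which 2 were found. Its summed count went from 18 to 42 toward lower positions and from 38 to 10 toward higher ones. The class III anchor at 31.867 Mb had 5 loops toward lower positions, of which 4 were found, and 8 toward higher positions, of which 1 was found, with summed counts from 26 to 62 and from 38 to 7. The anchor at 31.634 Mb did not show this: 2 of 4 were found toward lower positions and 5 of 7 toward higher ones. At 33.168 Mb these were 1 of 3 and 3 of 5, and at 33.257 Mb 3 of 5 on each side.

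Between the anchors at 31.634 and 31.867 Mb lay the main cluster of class III. The loop joining them had counts of 12 at 0 h and 11 at 24 h over 233.4 kb. The loop from 31.634 Mb to chr6:31801584-31803386 had counts of 11 and 18, and the loop from there to 31.867 Mb had counts of 6 and 18. All 3 sides of this triangle were listed at both times. Above it, the loop with the highest 0 h count in the region, 16, joined chr6:31864643-31869202 to chr6:31919624-31921099 over 53.4 kb and was not listed at 24 h, nor was the loop of 7 counts from 31.867 to 31.94 Mb. The strongest gained loop of class III joined chr6:31830724-31833048 to 31.867 Mb over 35.0 kb with a count of 13, and its lower anchor had no loop at 0 h.

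In class II the leading loops formed a chain between 33.129 and 33.281 Mb. The loop chr6:33128323-33130574 to chr6:33166878-33169130 had a count of 13 at 0 h and was not listed at 24 h, when its lower anchor had no loop at all. From 33.168 Mb to chr6:33215455-33217017 the counts were 12 and 18, and from 33.168 to 33.257 Mb they were 2 and 19, the highest ratio among the loops found again. From 33.257 Mb to chr6:33279609-33281977 they were 11 and 19. The strongest gained loop of class II, from 33.168 Mb to chr6:33265156-33267279 over 98.2 kb, had a count of 4. These loops were named for a high count in one list or the other, which favours large differences. Other pairs in this stretch went both ways. Counts were 6 and 5 from 33.216 to 33.257 Mb and 6 and 5 from 33.168 to 33.24 Mb. They were 4 and 5 from 33.216 to 33.24 Mb and 4 and 5 from 33.24 to 33.267 Mb. The summed count of class II loops was 113 at 0 h and 111 at 24 h.

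In class I the strongest lost loop joined the anchor at 30.876 Mb to chr6:31036115-31039190 over 161.8 kb with a count of 7. The strongest gained loop joined chr6:30709574-30712855 to the same anchor over 164.6 kb with a count of 13, the highest count of class I at 24 h. Some anchors had no loop at 24 h. In class I, those at chr6:30909477-30911693, chr6:31036115-31039190 and chr6:31046786-31048462 each had 4 loops at 0 h and 0 at 24 h. The same was so for chr6:31763061-31764403 in class III and chr6:33083629-33087416 in class II.

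Loops tied the subregions into 1 network. At 0 h a single connected set of 66 anchors, counting those outside the region, reached from 30.615 to 33.549 Mb, beside 1 separate pair from 31.363 to 31.41 Mb. At 24 h all 42 anchors belonged to 1 set from 30.615 to 33.56 Mb. These links between subregions rest on loops with counts of 2 to 5.

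The counts in the region differed in their share of odd values from those elsewhere in the same lists. Outside the region most counts of the CTCF-AID lists were even: 10.5% (10.2 to 10.8) of loops had an odd count at 0 h and 13.1% (12.6 to 13.5) at 24 h. Inside it 26.4% (19.0 to 35.3) and 37.3% (27.3 to 48.6) had one. In the other 5 lists, which hold no loop in most of the region, odd counts made up between 25.4% and 31.9% of loops outside it. At 0 h the region held 52 loops with a count of 2, 16 with 3 and 12 with 4. Among 238 windows of 5 Mb with at least 40 loops at 0 h, that of the region had the highest share of odd counts, ahead of 19.2%, and among 111 such windows at 24 h it was again the highest, ahead of 23.0%.

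**Figure D5:**
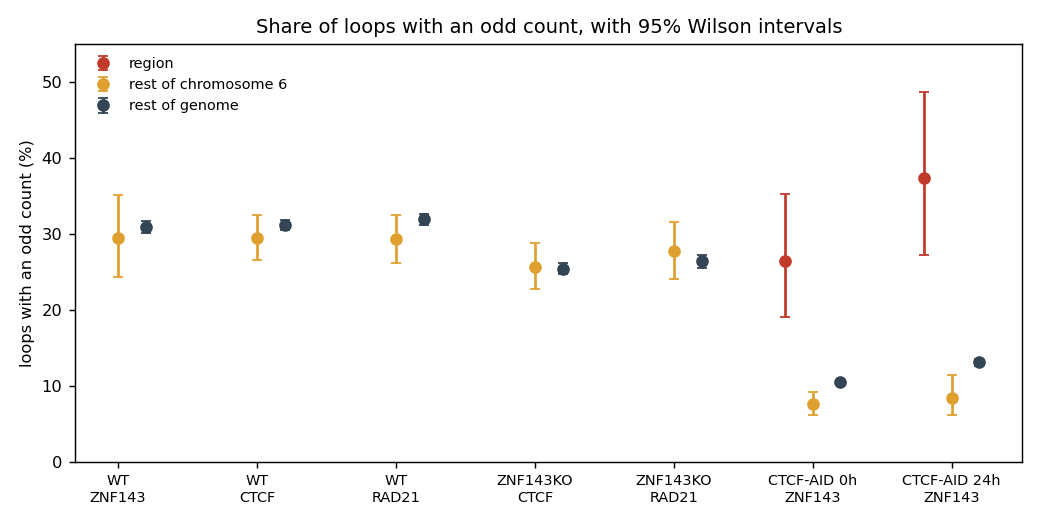
Percentage of loops with an odd count in each list, with 95% Wilson intervals, for the region (red), the rest of chromosome 6 (orange) and the rest of the genome (dark). In both CTCF-AID lists the region lies at 26.4% and 37.3%, above the rest of chromosome 6 at 7.56% and 8.43%.

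The scale of a count inside the region was therefore not taken to be the same as outside it. The median count was 3 at 0 h and 4 at 24 h in the region, against 2 at both times outside. With the counts outside divided by 2 and those inside kept, the comparison of loops in the region with the rest turned. The difference in share lost changed sign as given above, and the ratio of loop number ratios was 0.948 (0.706 to 1.27) in place of 1.34. The difference in the share of 0 h anchors in use at 24 h did not turn. It was 13.1 points (1.27 to 24.6) in place of 15.4 (3.60 to 26.9). Whether the region kept more of its ZNF143 loops than the rest of the genome cannot be read from these lists without knowing that scale. Comparisons of 24 h with 0 h within the region do not use the counts outside it. They still take the scale inside it to be the same at both times, which is not known. Odd counts made up 26.4% of its loops at 0 h and 37.3% at 24 h.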

How the data were processed

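The authors deposited 1 loop list per library, giving the positions of both anchors and a whole-number count per loop. Per the submitters' processing notes, reads were handled with HiC-Pro on hg19. The loop caller, the filters and any pooling of runs are not given in the sources used here. The deposited counts start at 2 and are not scaled to a common depth. They are sums over called loops (33460 to 143119 per list), so library depth is unknown. Listed spans run from 20.002 kb to 2.00 Mb.

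A loop was found in another list where both anchors, extended by 5 kb on each side, overlapped by at least 1 bp the anchors of 1 loop there. Shares carry Wilson intervals, ratios exact binomial ones, differences Newcombe ones, ratios of ratios log-normal ones and medians order-statistic ones, all at 95%. Python 3.11.15, pandas 2.3.3, NumPy 2.4.6, SciPy 1.17.1 and networkx 3.6.1 were used, and the matching was tested on simulated data. Named loops were the 3 highest counts per list, the highest lost and gained loop per subregion and the 3 anchors with most loops per list. The class II anchor at 33.257 Mb, anchors without loops at 24 h, loops between subregions and further loops at the leading anchors were added after their values were seen. The 12 gene lists (139 genes) prepared for the region were not used, since anchors could not be placed on genes without an hg19 annotation. The region, lists and rules were chosen with earlier results of these data known. Alternatives were minimum counts of 3 and 5, extensions of 0 and 10 kb, equal listed totals, both anchors inside the region and counts divided by 2.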

Additional observations from a re-analysis of the deposited data

How the results depend on the processing

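For 24 h against 0 h of auxin, 35 alternatives over 9 results were run; 26 gave a value within the main interval, 8 moved it and 1 reversed it. The other 16 concern lists with 1 or 0 loops in the region, most of whose values could not move, and say nothing of stability. Alternatives for the contrast of the region with the rest were chosen after seeing the data. With a minimum count of 5 the CTCF-AID loop number ratio was 1, and with counts of both lists divided by 2 it was 0.952. The share lost was 53.4% at a minimum count of 3 and 50% with counts divided by 2. With counts divided by 2 outside the region only, the ratio of ratios was 0.948 and the difference in share lost reversed to 1.95 points. In that setting the difference in the share of 24 h anchors already in use at 0 h was 17.4 points in place of 3.07. For 0 h anchors still in use at 24 h it was 13.1 points in place of 15.4. Against the rest of chromosome 6 the ratio of ratios was 1.87. Among loops with a count of 5 or more the difference in share lost was -1.33 points. The share of RAD21 loops gained was 100% at a minimum count of 3, where only the loop of the ZNF143KO list remained. The causes of the other moves were not tested. Planned results on wild-type ZNF143 or CTCF loops of the region had 0 loops in a list and gave no value: the CTCF pair's loop number ratio, share lost and span, the same for CTCF-AID at 0 h against wild-type, and the coincidence of wild-type ZNF143 and CTCF loops with other wild-type loops. No paired analysis was possible because every group has 1 library. The lists start at 2 counts, and weaker contacts were not analysed here.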
